A study of Homo sapiens with 54 samples.

Results

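The 16 tumors described here were the enzalutamide-treated LNCaP xenografts at the upper and lower ends of a score of 5 genes that respond to low oxygen, out of 54 tumors in the series. LNCaP is an established line of human prostate cancer cells that respond to androgen, grown here from clone FGC under the skin of male NOD-SCID mice, which lack working B and T cells. All mice of both enzalutamide groups had been castrated, and received enzalutamide (an antiandrogen drug), at 10 mg/kg by oral gavage from when serum PSA rose again after castration. ENZS tumors were taken at the second PSA nadir, while the drug was working, and ENZR tumors after PSA had returned or the tumor had reached the size limit. The other groups, used below only for comparison, were PRE-CX from intact mice, POST-CX taken at the PSA nadir after castration, and CRPC, which had relapsed after castration with no enzalutamide. Each tumor came from its own mouse, and all tumors descend from 1 cell line, so replicates measure the spread between mice and not between patients.

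Members were chosen on measured values. Tumors whose deposited TPM (transcript abundance corrected for gene length) summed to under 300000 over human genes were set aside, which removed ENZR mouse 87 and left 12 ENZS and 14 ENZR tumors. Each remaining tumor was rescaled to 1000000. The log2(TPM + 1) values of CA9, EGLN3, ANKRD37, BNIP3 and PDK1 were z-scored within each group and averaged, and the 4 highest and 4 lowest tumors of each group formed a marker-high set of 8 and a marker-low set of 8. The other 10 tumors lay between them. Oxygen itself was not measured in these files, so the sets are named by their marker score. Labels gave no batch, litter or date.

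Cells respond to falling oxygen mainly through the hypoxia-inducible factors (HIF). With oxygen present, the prolyl hydroxylases EGLN1, EGLN2 and EGLN3 mark the HIF alpha subunits, HIF1A and EPAS1, for destruction by the VHL ubiquitin ligase. When oxygen falls, the alpha subunits persist, pair with ARNT and bind short DNA elements near genes for glucose uptake, glycolysis, blood vessel growth and mitochondrial turnover. Part of this control acts on protein, not on transcript levels, so mRNA of the HIF subunits is not a direct readout of it.

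The core of the element that HIF binds reads ACGTG or GCGTG. Promoter windows are shown for 2 of the score genes (CA9, BNIP3), for 3 genes that rose in the marker-high set (LDHA, PGK1, PLOD2) and, as a contrast, for the gene with the largest called fall (SEMA3C). Each is the 250 bases before the first start that RefSeq (GRCh38.p14) lists for the gene, 5′ to 3′ on the gene's strand, with each core on either strand in capitals.
CA9 (chr9:35673678-35673927, plus strand): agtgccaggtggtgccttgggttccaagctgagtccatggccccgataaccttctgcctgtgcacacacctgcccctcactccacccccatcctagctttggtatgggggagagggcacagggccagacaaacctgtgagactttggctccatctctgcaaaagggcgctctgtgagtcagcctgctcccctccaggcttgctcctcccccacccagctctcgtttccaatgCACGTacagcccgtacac
BNIP3 (chr10:131981924-131982173, minus strand): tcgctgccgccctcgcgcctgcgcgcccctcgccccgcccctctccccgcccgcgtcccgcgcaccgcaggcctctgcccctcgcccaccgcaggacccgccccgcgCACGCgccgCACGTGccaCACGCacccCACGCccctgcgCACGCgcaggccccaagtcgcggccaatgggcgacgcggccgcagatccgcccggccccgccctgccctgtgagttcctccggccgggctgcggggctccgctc
LDHA (chr11:18394313-18394562, plus strand): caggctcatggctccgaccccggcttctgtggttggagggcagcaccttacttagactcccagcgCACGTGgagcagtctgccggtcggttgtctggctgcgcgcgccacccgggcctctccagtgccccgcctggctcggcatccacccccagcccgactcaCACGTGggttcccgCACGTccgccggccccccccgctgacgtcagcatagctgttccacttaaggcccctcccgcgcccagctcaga
PGK1 (chrX:78103998-78104247, plus strand): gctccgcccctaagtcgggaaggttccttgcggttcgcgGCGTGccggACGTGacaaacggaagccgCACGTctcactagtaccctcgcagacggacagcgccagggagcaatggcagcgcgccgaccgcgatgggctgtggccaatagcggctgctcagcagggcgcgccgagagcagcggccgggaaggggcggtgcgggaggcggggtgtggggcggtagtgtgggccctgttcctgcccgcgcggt
PLOD2 (chr3:146161185-146161434, minus strand): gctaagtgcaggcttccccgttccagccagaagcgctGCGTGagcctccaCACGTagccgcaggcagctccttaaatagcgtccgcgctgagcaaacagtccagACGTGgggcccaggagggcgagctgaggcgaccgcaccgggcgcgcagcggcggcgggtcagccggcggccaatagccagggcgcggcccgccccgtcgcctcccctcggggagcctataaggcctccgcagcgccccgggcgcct
SEMA3C (chr7:80922390-80922639, minus strand): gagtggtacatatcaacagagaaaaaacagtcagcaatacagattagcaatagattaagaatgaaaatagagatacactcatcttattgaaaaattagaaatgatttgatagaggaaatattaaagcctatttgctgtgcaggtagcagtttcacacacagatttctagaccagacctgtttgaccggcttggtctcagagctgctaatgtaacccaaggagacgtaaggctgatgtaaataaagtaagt
Counted on both strands, with overlapping matches counted separately, the window of CA9 held 1 core, BNIP3 6, LDHA 5, PGK1 3, PLOD2 3 and SEMA3C 0. These windows are examples and do not divide rises from falls: the score genes EGLN3 and PDK1 and the rises PFKP and SAP30-DT had 0, while the falls FAM47E-STBD1 and SDAD1 had 3 and 2. Such short letters are common: 43.2% of all 35116 RefSeq windows of this length held at least 1. Among the genes tested below, 57.5% of the 10550 with a window did. A match describes these letters only and does not show that a factor binds there.

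The 5 score genes are described first, with no test, because their values chose the sets. CA9, a carbonic anhydrase of the cell surface, ran from 5.58 to 31.6 TPM (median 7.44) in the marker-high set and from 0 to 3.20 TPM (median 0.238) in the marker-low set. BNIP3, a receptor for the removal of mitochondria, ran from 251 to 677 TPM (median 291) against at most 160 TPM (median 124). PDK1, a mitochondrial kinase that inhibits pyruvate dehydrogenase, ran from 19.9 to 95.7 TPM (median 44.2) against 5.17 to 19.7 TPM (median 10.2). These 3 genes separated the sets in full.

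ANKRD37, a small ankyrin-repeat protein, ran from 19.8 to 67.3 TPM (median 42.9) against 8.14 to 28.3 TPM (median 13.1), with 7 of 8 marker-high tumors above the marker-low range. EGLN3, itself an oxygen-sensing prolyl hydroxylase, was the least divided: 31.3 to 50.9 TPM (median 46.7) against 10.5 to 65.8 TPM (median 30.5), with 0 of 8 marker-high tumors above the marker-low range. The score thus joined 4 genes that differed widely between its ends and 1 that did so less.

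The scores ran without a gap past the limits of the sets. In ENZS, mouse 79 entered the marker-high set at 0.539 and mouse 56 stayed out at 0.522. Mouse 80 entered the marker-low set at -0.598 and mouse 49 stayed out at -0.508. In ENZR, mouse 64 entered at 0.626 and mouse 94 stayed out at 0.521, and mouse 98 entered the marker-low set at -0.533 with mouse 23 outside at -0.402. The highest score was 1.56 (ENZS mouse 45) and the lowest -1.27 (ENZR mouse 100). Leaving 1 score gene out kept between 13 (without EGLN3) and 16 (without BNIP3) of the 16 tumors in their set and moved 0 to the opposite set.

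**Figure D1:**
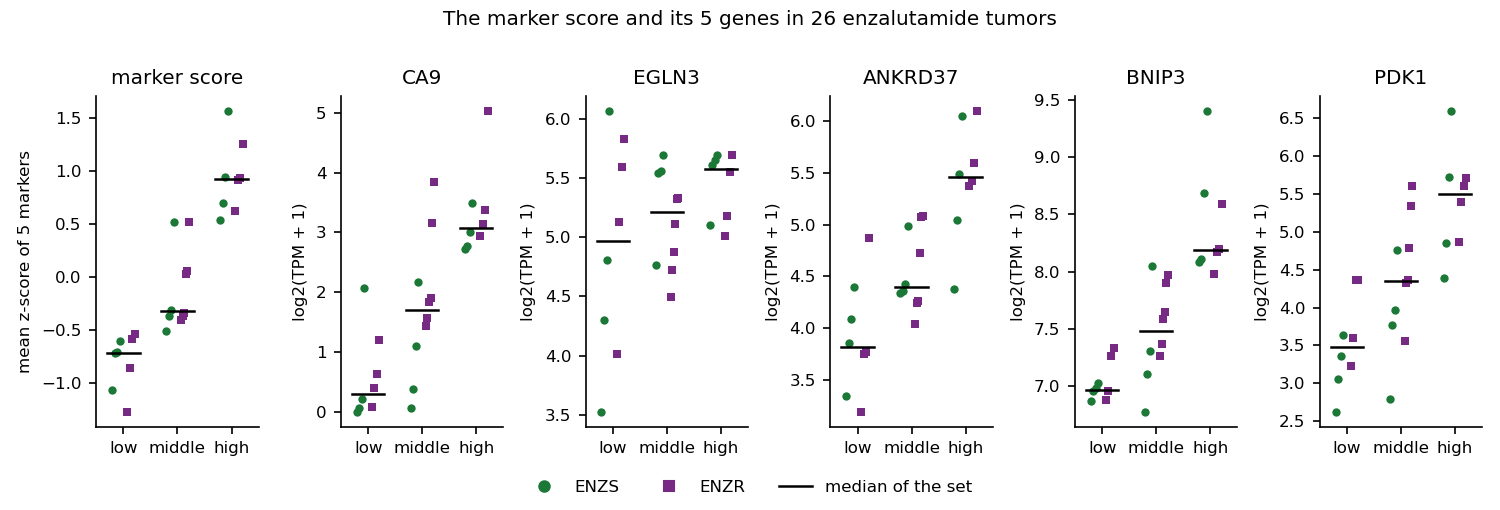
Marker score (mean z-score) and log2(TPM + 1) of its 5 genes, 1 point per tumor, for the marker-low, middle and marker-high enzalutamide tumors, with ENZS as circles, ENZR as squares and a line at the median of each set. CA9, BNIP3 and PDK1 did not overlap between the low and high sets, and EGLN3 overlapped throughout.

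Library measures were compared before genes. The human TPM total, the share of 1000000 that human genes took as deposited, was 91.2% ± 3.50 in the marker-high set and 82.0% ± 9.75 in the marker-low set (SD, n = 8 each), a difference of 9.27 percentage points (two-sided exact permutation test within groups, p = 0.0269, smallest possible 0.000408). The p rose above 0.05 without ENZR mouse 33 or 75 or without ENZS mouse 17 or 45. The 2 lowest totals of the 16, ENZR mouse 103 at 66.7% and ENZS mouse 17 at 70.8%, were both in the marker-low set. The number of genes at 1 TPM or more was 15991 ± 449 against 16204 ± 450 (p = 0.351, same exact test), and the 13 mitochondrial protein genes took 14.6% ± 1.65 against 13.8% ± 2.65 of human TPM (p = 0.485). Because the human total differed between the sets, results are also given with it as a covariate and without the 2 tumors under 75%. In bulk tumors such as these, fewer cells of a type and less RNA per cell cannot be told apart.

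Both sets expressed prostate epithelial markers. The keratin KRT8 ran from 249.7 to 437.4 TPM in the marker-high set and from 279.7 to 400.01 TPM in the marker-low set, and the adhesion protein EPCAM from 115.6 to 240.1 TPM against 136.4 to 256.3 TPM. FOLH1, which encodes the membrane antigen PSMA, ran from 567 to 2509 TPM against 908 to 2873 TPM. None of these 3, nor HOXB13, FOXA1, KRT18 and STEAP2, was called. In a xenograft, vessels and immune cells come from the mouse. Human transcripts of both were close to 0 here: 8 of 10 endothelial and 9 of 10 macrophage and leukocyte markers, PECAM1, CDH5 and PTPRC among them, stayed under 1 TPM in all 16 tumors. The fibroblast and pericyte list summed to 91.1 to 285 TPM against 56.5 to 702 TPM, most of it FN1, which tumor cells also express. Of 8 erythrocyte genes, the sums were at most 1.34 and 1.67 TPM.

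Tests covered 16087 genes that reached 1 TPM in 8 or more of the 16 tumors, and 112 genes (0.696%) differed between the sets at an adjusted p under 0.05 (limma, group as covariate, Benjamini-Hochberg adjustment). Of these, 85 (0.528%) were higher in the marker-high set and 27 (0.168%) were lower. The rises were larger, with a median log2 difference of 1.09 against -0.87 for the falls, and 49 of the 85 rises and 6 of the 27 falls reached 1 on the log2 scale. Every marker-high tumor lay above every marker-low tumor for 51 genes (0.317% of those tested), and below for 13 (0.0808%). At an unadjusted p under 0.05 (limma) 1911 of the 16087 genes differed, 576 higher and 1335 lower. The background for list counts of called genes below is the 0.528% and 0.168%. For list counts at an unadjusted p it is these 576 and 1335 genes. The median of all genes was -0.07 with rescaled TPM and 0.07 with TPM as deposited, which also changed the split: 136 genes were higher and 8 lower as deposited, and 122 higher and 18 lower after centring each tumor on its median. The p-values measure the spread between tumors of 1 cell line, and they concern which genes go with the marker score, not a treatment.

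Among the lists, glycolysis held the most rises. Of 20 tested genes for glucose uptake and glycolysis, 15 rose and 0 fell, beside 0.528% and 0.168% of all genes tested. The list's median log2 difference was 1.11 against -0.07 over all genes tested. The calls covered nearly the whole route from glucose to lactate. HK2 (hexokinase 2), GPI, PFKP, ALDOA, ALDOC, TPI1, GAPDH, PGK1, PGAM1, ENO1, ENO2, PKM and LDHA rose, together with PFKFB3 and PFKFB4, which set the level of the sugar phosphate that drives phosphofructokinase.

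LDHA, the subunit of lactate dehydrogenase that turns pyruvate into lactate, showed the largest rise of the list. Its level ran from 1032 to 3124 TPM (median 1539) in the marker-high set and from 205 to 685 TPM (median 323) in the marker-low set, with no overlap, a 4.49-fold ratio of means and a log2 difference of 2.17 ± 0.26 (SE, adjusted p = 0.000234). PGK1, which makes the first ATP of the pathway, ran from 585 to 1379 TPM (median 891) against 313 to 419 TPM (median 383), a log2 difference of 1.29 ± 0.13 (adjusted p = 4.67e-05). Its marker-low values were tightly grouped and all marker-high values lay above them. PFKP, the platelet form of phosphofructokinase, ran from 51.5 to 101 TPM against 22.0 to 30.8 TPM (1.44 ± 0.14, adjusted p = 3.1e-05).

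PFKFB4 ran from 22.3 to 54.7 TPM against 6.96 to 15.5 TPM (log2 difference 1.69 ± 0.16, adjusted p = 3.1e-05). PFKFB3 ran from 12.0 to 42.3 TPM against 4.22 to 8.66 TPM (1.71 ± 0.21, adjusted p = 0.000234). Both regulators separated the sets in full. The other called members rose by between 0.82 (PGAM1) and 1.67 (HK2) on the log2 scale. Of the 15 called, 11 did not overlap between the sets. So did 45 of all 85 rises, and 51 (0.317%) of the 16087 genes tested separated in this direction. The 15 were already picked by their calls, so this count is no further support.

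The isoforms of single steps were not alike. Among hexokinases, HK1 had a log2 difference of 0.00 ± 0.13 (adjusted p = 0.996) beside the rise of HK2. Among phosphofructokinases, the liver form PFKL had 0.59 ± 0.18 (adjusted p = 0.194) and the muscle form PFKM -0.20 ± 0.13 (adjusted p = 0.560) beside the rise of PFKP. The differences between isoforms were not tested. SLC2A1, the glucose carrier GLUT1, ran from 54.5 to 89.2 TPM (median 63.5) against 28.0 to 61.6 TPM (median 47.0), with 4 of 8 marker-high tumors above the marker-low range. Its log2 difference of 0.58 ± 0.16 missed the threshold (adjusted p = 0.122), passed it with TPM as deposited (0.74, adjusted p = 0.0151) and after centring (0.66, adjusted p = 0.0227). SLC16A3, the lactate exporter MCT4, was low and scattered (0.58 ± 0.41, adjusted p = 0.598). SLC2A3 was at most 0.148 TPM in these 16 tumors and was not tested.

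With the human TPM total as a covariate 11 of the 20 were called higher, and without the 2 tumors under 75% 13 were. The list's median was 0.96 and 1.08 in these fits, beside 1.11. With TPM as deposited and after centring, 16 were called, SLC2A1 being added.

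**Figure D2:**
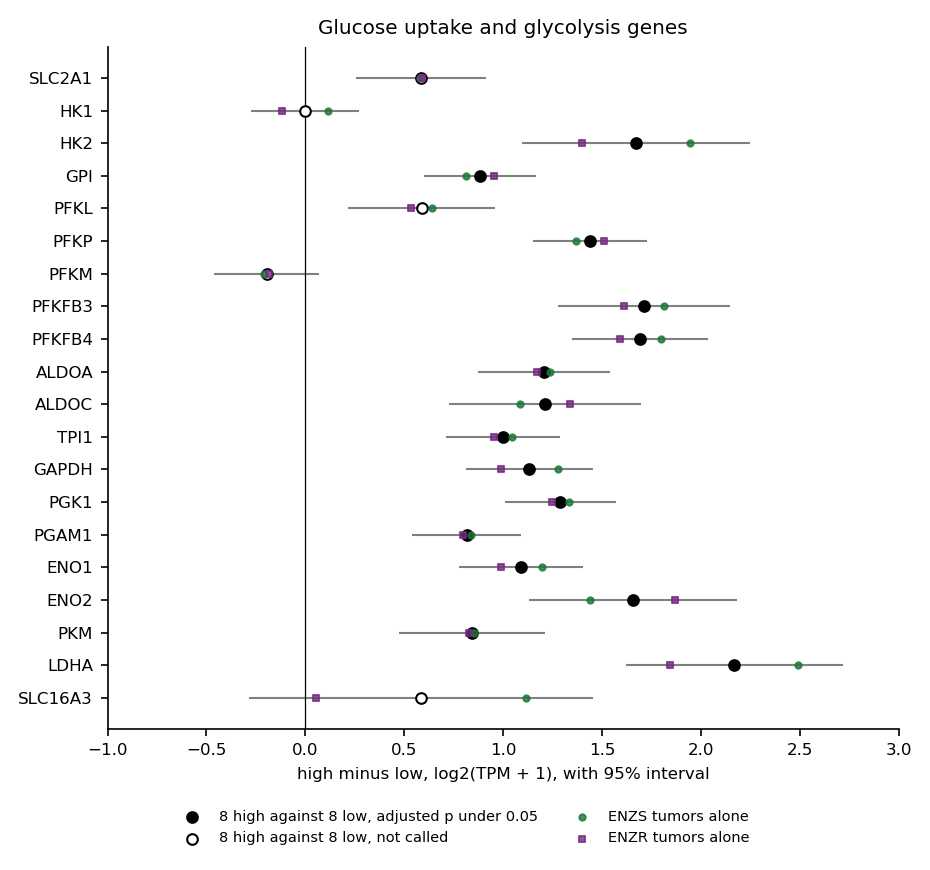
Log2 difference (marker-high minus marker-low, log2(TPM + 1)) of the 20 tested genes for glucose uptake and glycolysis, with the 95% interval of the fit over 16 tumors and the separate values of ENZS (circles) and ENZR (squares). All but SLC2A1, HK1, PFKL, PFKM and SLC16A3 were called. The ENZS and ENZR values of the called genes were all above 0, but these are parts of the 16 tumors that gave the calls.

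Known HIF targets outside glycolysis were counted next. Of 20 regulators on a list of HIF-induced genes (median log2 difference 0.64), 8 rose and 0 fell, beside 0.528% and 0.168% of all genes tested. With the human total as a covariate 3 of the 20 were called, with a median of 0.60. Without the 2 tumors under 75% 6 were, with the same rounded median. MIR210HG, the host transcript of the microRNA miR-210, ran from 17.2 to 34.8 TPM against 4.38 to 9.55 TPM (log2 difference 1.72 ± 0.18, adjusted p = 4.67e-05). PPFIA4, a liprin scaffold protein, ran from 3.64 to 12.7 TPM against 0.336 to 2.59 TPM (2.12 ± 0.21, adjusted p = 4.67e-05). Neither overlapped between the sets.

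BHLHE40, a repressor tied to the circadian clock, ran from 20.6 to 151 TPM (median 55.6) against 11.4 TPM at the lowest and a median of 15.0 TPM, with 7 of 8 marker-high tumors above the marker-low range (1.79 ± 0.29, adjusted p = 0.00433). NDRG1, which androgens also induce, ran from 290 to 737 TPM (median 364) against 129 to 261 TPM (median 180), without overlap (1.17 ± 0.19, adjusted p = 0.00488). With the human total as a covariate the NDRG1 difference was 0.91 and missed the threshold (adjusted p = 0.0961). The other called members were BNIP3L, which is the close relative of BNIP3, the histone demethylase KDM3A, RIMKLA and TMEM45A. TMEM45A ran from 3.51 to 25.6 TPM against 0.583 to 4.54 TPM (1.87 ± 0.35, adjusted p = 0.0138), and was not called with the human total as a covariate (adjusted p = 0.129).

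Members that were not called differed in size and direction. ERO1A, an oxidase of protein folding, did not overlap between the sets (39.4 to 259 TPM against at most 35.5 TPM) but missed the threshold (1.43 ± 0.34, adjusted p = 0.0730). DDIT4 missed it too (0.97 ± 0.25, adjusted p = 0.107). Both were called with TPM as deposited and in the slope over 26 tumors, where 10 and 12 of the 20 listed genes were called higher. CA12, a carbonic anhydrase like CA9, had a difference of -0.63 ± 0.27 (adjusted p = 0.376), and BHLHE41, the close relative of BHLHE40, of -0.82 ± 0.63 (adjusted p = 0.627).

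Among 8 tested secreted and vascular factors (median log2 difference 0.26), 2 rose and 0 fell, beside 0.528% and 0.168% of all genes tested. The other 10 of the 18 listed were too low to be tested, among them ANGPTL4, EDN1 and EPO. VEGFA, the main growth signal for blood vessels, ran from 150 to 356 TPM (median 241) against 53.4 to 148 TPM (median 114), without overlap (1.13 ± 0.20, adjusted p = 0.0102). STC1, the secreted hormone stanniocalcin 1, ran from 2.18 to 5.81 TPM against 0.373 to 1.25 TPM (1.74 ± 0.18, adjusted p = 5.02e-05). Both calls held under each alternative tried. ADM, an adrenomedullin precursor often used to read hypoxia, was near 1 TPM in both sets (median 1.19 against 0.910 TPM, 0.25 ± 0.24, adjusted p = 0.709). APLN, the vessel-acting peptide apelin, was outside the list and ran from 8.19 to 25.8 TPM against 0.734 to 5.88 TPM (2.24 ± 0.31, adjusted p = 0.00112).

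PLOD2, a lysyl hydroxylase that prepares collagen for cross-linking, had the second-largest rise of the 85. Its level ran from 25.9 to 129 TPM (median 39.3) in the marker-high set and from 1.32 to 10.7 TPM (median 4.66) in the marker-low set, a 10.3-fold ratio of means and a log2 difference of 3.09 ± 0.34 (adjusted p = 6.97e-05). It was the only called gene of 12 tested for collagen modification, whose median was 0.21. P4HA1, a subunit of the collagen prolyl hydroxylase, came nearest among the rest (median 301 against 108 TPM, 1.22 ± 0.32, adjusted p = 0.121). It was called with TPM as deposited, after centring, with the cell division score as a covariate and in the slope over 26 tumors. With the human total as a covariate it was not.

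The mitochondrial respiratory chain showed no such change. Of 32 nuclear-encoded subunits 0 were called (median log2 difference 0.03), and of the 13 mitochondrially encoded genes 0 were called (median 0.11), with 2 and 1 at an unadjusted p under 0.05. NDUFA4L2, a subunit variant known as a HIF target, stood apart with the largest rise of the 85: 5.52 to 251 TPM (median 129) against 2.67 to 14.5 TPM (median 9.25), 3.31 ± 0.57 (adjusted p = 0.00753). A single marker-high tumor, ENZR mouse 75 at 5.52 TPM, lay within the marker-low range, and the other 7 were at 75.4 TPM or more. The call was lost with the human total as a covariate (3.49, adjusted p = 0.0527), with 3 tumors per end (3.03, adjusted p = 0.118) and with sets chosen on TPM as deposited (2.73, adjusted p = 0.0632). PDHA1 and PDHB, which encode pyruvate dehydrogenase subunits, and PDK2, a relative of the score gene PDK1, had log2 differences of 0.04, 0.05 and 0.04.

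Genes of the sensing machinery formed a list of their own. Of 11 tested genes for HIF subunits and oxygen sensing, 0 were called, with 2 at an unadjusted p under 0.05 (limma), both lower, and the median was -0.15. Among all 16087 genes, 1335 were lower at that unadjusted level. EGLN3 is not on this list, since it is part of the score. HIF1A ran from 51.3 to 100 TPM (median 74.3) against 53.4 to 138 TPM (median 86.5; -0.28 ± 0.21, adjusted p = 0.616). EPAS1 had lower levels than HIF1A in both sets, with medians of 3.12 and 4.43 TPM (-0.48 ± 0.30, adjusted p = 0.536). EGLN1, the main oxygen sensor, had medians of 104 and 84.7 TPM (0.12 ± 0.21, adjusted p = 0.850), and VHL had medians of 72.1 and 102 TPM (-0.41 ± 0.14, adjusted p = 0.243).

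HIF1A-AS3, a transcript of the HIF1A locus on the opposite strand, did differ: 5.72 to 11.8 TPM against 0.373 to 2.50 TPM, without overlap (2.43 ± 0.20, adjusted p = 1.2e-05). The libraries were strand-specific, but the strand setting of the quantification is not given in the sources used here, so reads of HIF1A and of this partner may not be fully separated. SAP30-DT, which starts beside SAP30 and runs the other way, showed the same pattern with 7.37 to 15.0 TPM against 0.983 to 2.60 TPM (2.02 ± 0.18, adjusted p = 1.2e-05). These 2 transcripts shared the smallest adjusted p of all 16087 genes.

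Further large rises belonged to no list. CXCR4, a chemokine receptor, ran from 1.98 to 16.4 TPM against 0.330 to 1.96 TPM (2.06 ± 0.31, adjusted p = 0.00274), with ENZS mouse 79 only just above the marker-low range. GABRA2, a subunit of a GABA receptor, ran from 0.295 to 12.1 TPM (median 8.10) against 0.0565 to 2.10 TPM (median 0.252), with 1 marker-high tumor inside the marker-low range (2.24 ± 0.40, adjusted p = 0.00956). AL136131.3, named here by its table entry, ran from 14.3 to 32.7 TPM against 1.87 to 14.9 TPM (1.89 ± 0.32, adjusted p = 0.00698). With the human total as a covariate these 3 kept their size but missed the threshold: CXCR4 at 1.93 (adjusted p = 0.0523), GABRA2 at 2.28 (adjusted p = 0.0764) and AL136131.3 at 1.99 (adjusted p = 0.0527). GABRA2 also missed it with 3 tumors per end (2.03, adjusted p = 0.185). LDHAP4 and BNIP3P1 are processed copies of LDHA and of the score gene BNIP3, so their differences of 1.97 ± 0.21 and 1.38 ± 0.21 may hold reads of the parent genes, and BNIP3P1 is no independent evidence.

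**Figure D3:**
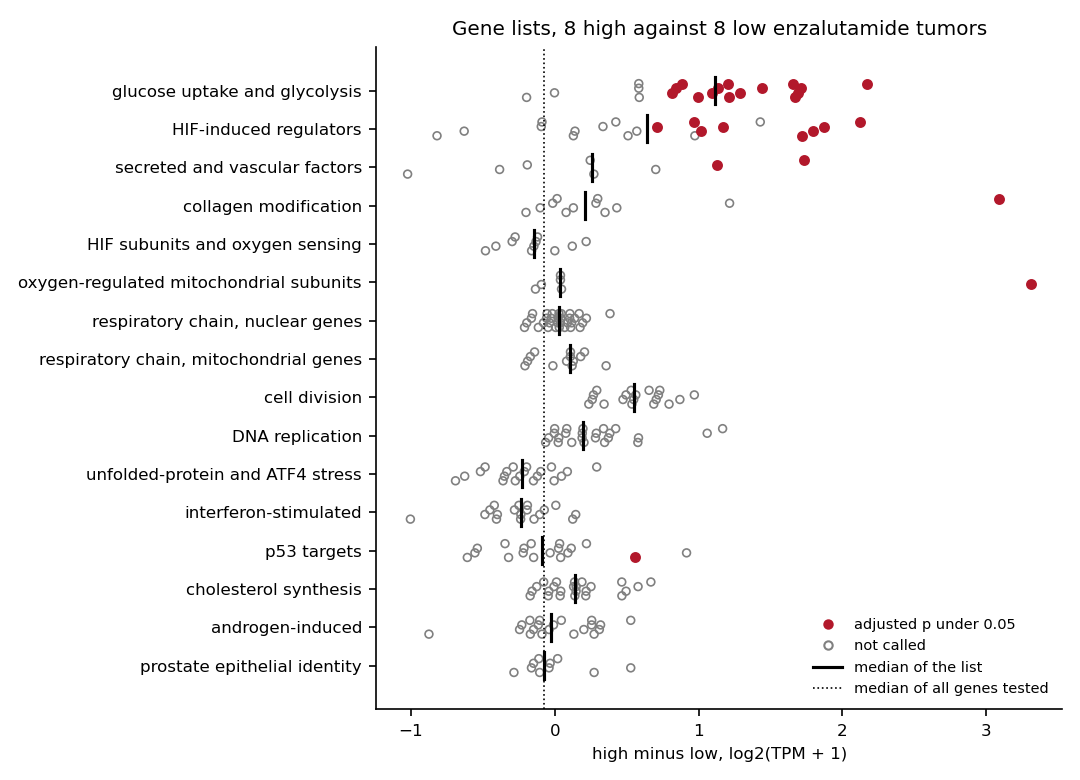
Log2 difference (marker-high minus marker-low, log2(TPM + 1)) of each tested gene in 16 lists, 1 circle per gene, filled where called, with a bar at the list's median and a dotted line at the median of all genes (-0.07). Called genes sit in the glycolysis (15), HIF-induced (8) and secreted factor (2) lists, with 1 each for collagen modification, oxygen-regulated mitochondrial subunits and p53 targets, and 0 in the others drawn.

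Cell division and androgen response were compared as other programs that vary between such tumors. All 19 tested cell division genes had a difference above 0 (median log2 0.55), beside 5704 of all 16087 genes tested (35.5%). Yet 0 of the 19 were called and 0 reached an unadjusted p under 0.05 (limma). MKI67, the usual marker of cycling cells, reached 11.5 TPM (median 3.04) against 0.461 to 5.69 TPM (median 3.08; 0.50 ± 0.33, adjusted p = 0.580). Of 24 DNA replication genes 0 were called (median 0.20, 1 at an unadjusted p under 0.05). With the cell division score as a covariate, 113 genes were called in all, of which 75 were among the 85 rises and 18 among the 27 falls.

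Of 20 tested androgen-induced genes 0 were called (median log2 difference -0.02, 1 at an unadjusted p under 0.05). KLK3, which encodes PSA, ran from 753 to 4991 TPM (median 2706) against 838 to 4105 TPM (median 1664; 0.53 ± 0.37, adjusted p = 0.593). FKBP5 ran from 11.1 to 112 TPM (median 12.9) against 10.3 to 34.0 TPM (median 17.2; 0.20 ± 0.41, adjusted p = 0.877), and its direction turned without ENZR mouse 75 (-0.17).

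The remaining lists held 1 call. DDB2, a DNA damage sensor on the p53 target list, ran from 18.1 to 23.9 TPM against 8.81 to 19.5 TPM (0.56 ± 0.12, adjusted p = 0.0471), and was lost in 18 of 27 alternatives. The other 17 p53 targets were not called. Counts were 0 of 20 for unfolded-protein and ATF4 stress (median -0.23, 17 below 0), 0 of 18 for interferon-stimulated genes (median -0.24, 15 below 0), 0 of 24 for cholesterol synthesis (median 0.14) and 0 of 3 for neuroendocrine genes. Among all genes tested, 10383 of 16087 had a difference below 0. At an unadjusted p under 0.05 (limma) these 4 lists held 1, 4, 4 and 0 genes, beside 1911 of all 16087. For the stress list the median turned to 0.14 with the human total as a covariate.

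Of the 27 genes that fell, 0 were in a list used here. SEMA3C, a secreted semaphorin, had the largest fall among them: 3.59 to 42.1 TPM (median 16.9) in the marker-high set against 43.0 to 93.5 TPM (median 56.4), with a log2 difference of -2.07 ± 0.40 (adjusted p = 0.0188). The sets only just did not overlap. CD55, which shields cells from complement, ran from 0.472 to 3.50 TPM (median 1.41) against 1.52 to 27.9 TPM (median 8.43; -1.84 ± 0.36, adjusted p = 0.0180). The highest CD55 level was in ENZS mouse 17 and the next in ENZR mouse 103, the 2 tumors with the lowest human total.

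ABCG1, a cholesterol exporter, ran from 4.74 to 24.4 TPM against 22.9 to 62.9 TPM (-1.25 ± 0.25, adjusted p = 0.0270). MAP2, a microtubule protein best known from neurons, ran from 0.592 to 4.97 TPM against 2.86 to 20.6 TPM (-1.42 ± 0.30, adjusted p = 0.0372). In both, 1 or more marker-high tumors reached the marker-low range.

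STBD1, a glycogen-binding protein, ran from 5.74 to 8.72 TPM against 9.79 to 21.9 TPM (-0.81 ± 0.16, adjusted p = 0.0188). FAM47E-STBD1, a readthrough transcript over the same gene, fell by 0.70 (adjusted p = 0.0471) and can share its reads. SDAD1, a ribosome assembly factor, separated the sets (12.5 to 29.0 TPM against 31.9 to 41.4 TPM, -0.66 ± 0.14, adjusted p = 0.0329). The other falls named by the rule, which asks for a mean of 5 TPM in the higher set, were WDFY3-AS2 (-0.98), ATP8A1 (-0.93), EYA2 (-0.92) and PKD2 (-0.90). AC072026.2 (-1.25, adjusted p = 0.00759) and ASZ1 (-1.15, adjusted p = 0.0412) fell by more but lay below that level. The calls of the falls were often lost in the 27 alternatives: FAM47E-STBD1 in 23, MAP2 and WDFY3-AS2 in 19, SDAD1, ATP8A1 and PKD2 in 16, ABCG1 in 12, STBD1 in 7, CD55 in 6, and SEMA3C and EYA2 in 5.

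The number of falls changed with the human total in the fit. With that total as a covariate, 33 genes were called, 32 higher and 1 lower, of which 31 were among the 85 rises and 0 among the 27 falls. The differences kept their directions in that fit, with a median of 0.999 for the 85 rises, beside 1.09, and of -0.74 for the 27 falls, beside -0.87. SEMA3C, for one, had -2.001 (adjusted p = 0.175). Without the 2 tumors under 75%, 65 were called, 56 higher and 9 lower, of which 56 were among the 85 rises and 5 among the 27 falls, and the median of the falls was again -0.87. What part the human total had in the falls was not tested further. The number of falls also rested on single tumors: it was 47 without ENZR mouse 64, 45 without ENZS mouse 101, 17 without ENZS mouse 17, 14 without ENZS mouse 76 or 79, 12 without ENZR mouse 33 or ENZS mouse 45, 11 without ENZR mouse 98 or 103 or ENZS mouse 80, and 9 without ENZR mouse 105.

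**Figure D4:**
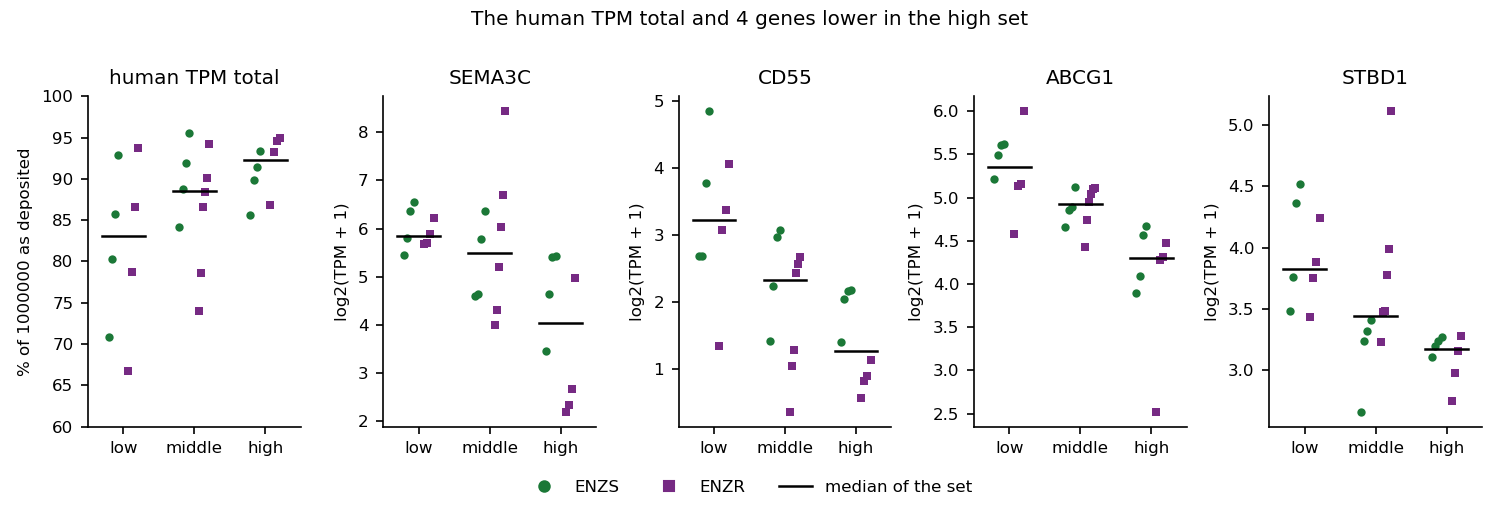
Human TPM total (percent of 1000000 as deposited, axis from 60%) and log2(TPM + 1) of SEMA3C, CD55, ABCG1 and STBD1, 1 point per tumor, in the marker-low, middle and marker-high sets, with ENZS as circles, ENZR as squares and a line at the median. The totals under 75% lie in the low and middle sets, and the median of each of the 4 genes is lowest in the high set.

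The comparison was repeated within each group on 4 against 4 tumors, with the spread shared over all 16. In ENZS 29 genes were called (0.18% of those tested, 28 of them higher), and in ENZR 21 (0.131%, 16 higher). Of the ENZS calls 28, and of the ENZR calls 17, were also among the 112. The groups shared 12 genes, which was 41.4% of the ENZS and 57.1% of the ENZR calls: HIF1A-AS3, HTR5A, LDHAP4, MIR210HG, PFKFB3, PFKFB4, PFKP, PGK1, PLOD2, PPFIA4, SAP30-DT and STC1. All 112 genes had the same sign in both groups. The 112 were called on the same 16 tumors, so neither this nor the overlap of the group calls with them is independent support. The ENZR count rested on single tumors and was 0 without ENZR mouse 103, 3 without mouse 21, 4 without mouse 33, 92 without mouse 64 and 49 without mouse 75. It was 7 without ENZR mouse 98, 9 without ENZR mouse 100 or ENZS mouse 76, 11 without ENZS mouse 57, and 13 without ENZR mouse 105 or ENZS mouse 101. In ENZS, the count was 15 without mouse 76 and 16 to 18 without mouse 17, 45, 57 or 80.

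A direct test of the difference between ENZR and ENZS called 0 genes (0%, limma). At an unadjusted p under 0.05 it held 435 of the 16087 genes, a share smaller than 0.05. Without ENZS mouse 80 it called 1. The log2 difference of PLOD2 was 3.72 for ENZS tumors and 2.46 for ENZR tumors, that of LDHA 2.49 and 1.84, and that of SEMA3C -1.31 and -2.83.

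The 26 PRE-CX, POST-CX and CRPC tumors kept by the same filter were not used to choose the sets, and the score was computed in them by the same formula. Over these tumors 118 genes (0.734%) rose and 32 (0.199%) fell with the score (limma, slope per unit of score, group as covariate). Of the 85 rises, 82 had a slope above 0 and 58 were called higher, which was 68.2% of the rises and 49.2% of the 118, and 0 were called lower. Among all genes 5766 of 16087 had a slope above 0. The median slope of the 85 was 0.38 per unit of score. The mean scores of the marker-high and marker-low sets lay 1.73 units apart, so slopes and set differences are not on the same scale.

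PLOD2, PGK1 and LDHA had the smallest adjusted p of the slopes, with slopes of 1.15, 0.52 and 0.60 (adjusted p = 1.67e-07, 1.67e-07 and 1.8e-07). NDUFA4L2 had the largest slope among called genes, 1.23 (adjusted p = 6.25e-06). Of the 20 glycolysis genes 16 were called higher, now with SLC2A1 (0.40, adjusted p = 1.48e-05), and of the 20 HIF-induced regulators 12, now with FAM162A, INSIG2, ERO1A (0.69, adjusted p = 1.4e-05) and DDIT4 (0.40, adjusted p = 0.00873). EGLN1 was called as well (0.36, adjusted p = 0.000317). GABRA2 (0.44, adjusted p = 0.0787) and AL136131.3 (0.32, adjusted p = 0.316) were not.

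Of the 27 falls, 19 (70.4%) had a slope below 0, beside 64.2% of all genes tested, and 0 were called. SEMA3C had a slope of 0.25 (adjusted p = 0.658) and CD55 of -0.14 (adjusted p = 0.700). CD55 was also low outside the enzalutamide groups, with medians of 0.734 TPM in PRE-CX, 1.32 TPM in POST-CX and 0.856 TPM in CRPC, close to the 1.41 TPM of the marker-high set. SEMA3C had medians of 8.72, 11.8 and 32.3 TPM in these groups. The difference between the enzalutamide and the other tumors in these slopes was not tested.

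**Figure D5:**
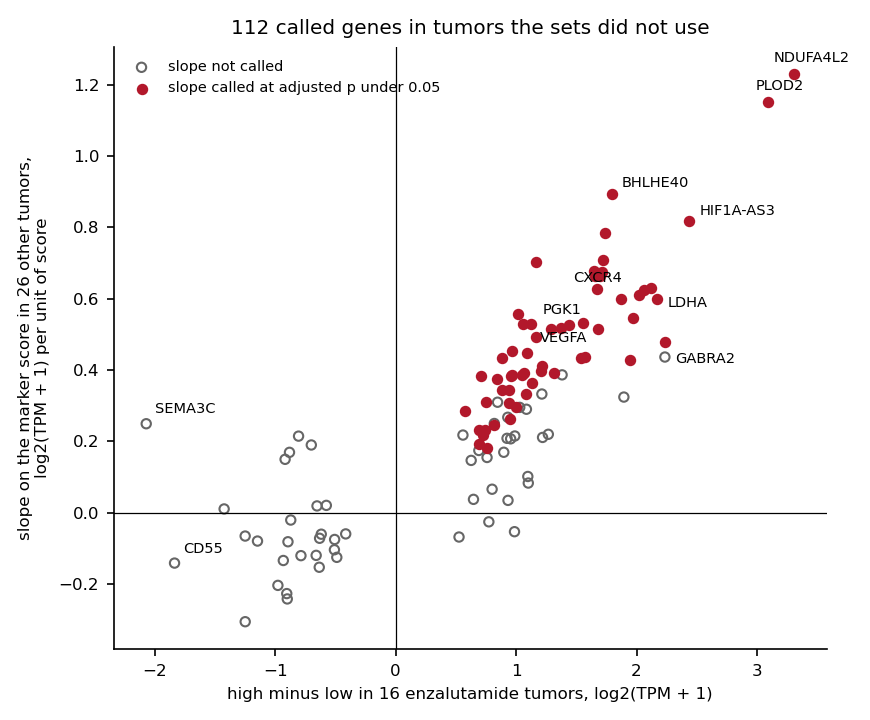
Log2 difference in the 16 enzalutamide tumors (x axis, log2(TPM + 1)) against the slope on the marker score in the 26 PRE-CX, POST-CX and CRPC tumors (y axis, log2(TPM + 1) per unit of score) for the 112 called genes, filled where the slope was called. Filled points (58) are all among the rises at the upper right, and the 27 falls have slopes on both sides of 0.

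Levels in the untreated and castrated groups place the 2 sets. LDHA had a median of 1557 TPM in PRE-CX, 670 TPM in POST-CX and 1053 TPM in CRPC, so the marker-high set (1539 TPM) stood near intact tumors and the marker-low set (323 TPM) below the lowest POST-CX tumor (379 TPM) in its median. PLOD2 had medians of 23.0, 2.81 and 13.9 TPM in the same order, beside 39.3 and 4.66 TPM in the marker-high and marker-low sets. VEGFA had medians of 141, 76.6 and 105 TPM, beside 241 and 114 TPM. These levels are given side by side and were not tested.

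Of the 112 called genes, 24 were called in every refit, all of them higher. This leaves aside the added limit of 1 on the log2 difference, which TPI1 missed. They included ALDOA, ENO1, ENO2, GAPDH, LDHA, PFKFB3, PFKFB4, PFKP, PGK1 and TPI1 of glycolysis, and APLN, BHLHE40, HIF1A-AS3, MIR210HG, PLOD2, PPFIA4, SAP30-DT, STC1 and VEGFA. The 24 also held LDHAP4, GAPDHP1 and BNIP3P1, which may hold reads of LDHA, GAPDH and the score gene BNIP3. These 3 copies are no separate evidence. In the RefSeq windows described at the start, 39 of the 56 rises with a window (69.6%) and 8 of the 17 falls with one (47.1%) held a HIF core, beside 57.5% of tested genes. These shares were not tested.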

How the data were processed

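RNA of 54 xenograft tumors was sequenced as strand-specific, polyadenylated, paired-end libraries. Per the labels and the methods of the study, the authors trimmed reads (Trim Galore 0.6.5, FastQC 0.11.9), aligned them with STAR 2.7.2b to human GRCh38 joined to the mouse genome and quantified genes with RSEM 1.3.3. These versions come from the submitters' processing notes. The deposited values are TPM per human gene symbol (60642 symbols), with mouse genes removed, so that the human values of a tumor sum to less than 1000000. TPM hold no read depth. Sequencing aimed at about 40 M pairs a tumor per the labels, which the values cannot show, so no counting interval is given and precision rests on the spread between tumors.

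Here each tumor was rescaled to 1000000, and log2(TPM + 1) was tested with limma 3.58.1 (R 4.3.3, trend option) over genes that reached 1 TPM in 8 or more of the 16 tumors. The pseudocount of 1 understates changes of genes near or below 1 TPM. Calls needed an adjusted p below 0.05, with Benjamini-Hochberg adjustment over all 16087 genes, and the 5 score genes were left out of the tests. Library measures were compared by exact permutation within groups (4900 permutations). On simulated data with independent noise and changed genes picked at random, the fit recovered changed genes. Those data did not carry the choice of sets by score or the difference in human total, so they do not test the effect of either. No columns were identical, and the highest correlation between 2 tumors was 0.986.

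Genes were named by a rule: the score genes, the 12 largest rises and falls whose higher set averaged 5 TPM or more, a panel of further genes, up to 4 called genes per list, and up to 5 per further contrast. Other list members, and the genes of the closing observations, were named after their values were seen. Some genes that the rule names are not reported here. The members and lists were chosen with earlier results of these data known. RefSeq (GRCh38.p14) gave promoter windows for 56 of 85 rises and 17 of 27 falls. Alternatives changed the scaling, pseudocount, filter, variance fit, covariates, set size and members, left out each tumor in turn, and, chosen after seeing the data, left out tumors under 75% human TPM.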

Additional observations from a re-analysis of the deposited data

Results flagged for a closer look

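In 8 of the 100 sets of 8 values looked at (8%; chance gives about 1 in 20), 1 tumor stood apart from the rest of its set, with a gap to the next value above Dixon's 95% limit for 8 values, as a share of the set's range on the log2(TPM + 1) scale. In the marker-high set, CA9 was highest in ENZR mouse 21 (31.6 TPM, next 10.3 TPM, gap 0.663 of the range), and NDRG1 was highest in ENZS mouse 45 (737 TPM, next 429 TPM, gap 0.580). PPFIA4 was lowest in ENZS mouse 79 (3.64 TPM, next 7.42 TPM, gap 0.549).

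ENZR mouse 75 accounted for 3 of the 8. Within the marker-high set it had the lowest NDUFA4L2 (5.52 TPM, next 75.4 TPM, gap 0.673), the lowest ABCG1 (4.74 TPM, next 13.9 TPM, gap 0.642) and the lowest WDFY3-AS2 (1.49 TPM, next 4.95 TPM, gap 0.649).

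In the marker-low set, VEGFA was lowest in ENZS mouse 101 (53.4 TPM, next 107 TPM, gap 0.677) and GABRA2 was highest in ENZR mouse 105 (2.10 TPM, next 0.619 TPM, gap 0.604).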

How the results depend on the processing

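Of the 112 genes called (85 higher, 27 lower), the count was 33 (32 and 1) with the human TPM total as a covariate, 50 (45 and 5) with 3 tumors per end and group, 67 (62 and 5) with sets chosen on TPM as deposited, 65 (56 and 9) without the tumors under 75% human TPM, 70 (62 and 8) without a filter, 172 (142 and 30) as a slope over all 26 enzalutamide tumors, 55 (49 and 6) with a log2 difference of at least 1 as well, and 144 (136 and 8) with TPM as deposited. It was 140 (122 and 18) after centring, 104 (81 and 23) with a pseudocount of 0.1, 113 (86 and 27) with robust empirical Bayes, and 113 (91 and 22) with the cell division score as a covariate. Of the 85 rises 78, and of the 27 falls 12, were called again in the slope over 26 tumors. With TPM as deposited 84 and 7 were, and with 3 tumors per end 45 and 2. Sets chosen on TPM as deposited gave 59 and 2. The falls had a median of -0.67 in the slope, scaled to the sets' score difference, and -0.66 with those sets, beside -0.87. For the rises it was 1.09 and 1.03, beside 1.09. Leaving out 1 tumor gave 76 to 126 calls in all, 65 to 99 higher and 9 to 47 lower. In ENZS alone the count was 15 to 35 with 1 tumor left out and 17 without a filter, in ENZR 0 to 92 and 8, and the difference between the groups gave 0 to 1, with 1 call without ENZS mouse 80. The human TPM total differed by 9.17 points with 3 tumors per end (exact p = 0.0900, permutation within groups) and by 7.09 to 10.96 with 1 tumor left out, where p rose above 0.05 without ENZR mouse 33 or 75 or ENZS mouse 45 or 17. The causes were not tested. Among reported genes without a call, FKBP5 turned to -0.193 with the cell division score and, with 1 tumor left out, ran from -0.171 (without ENZR mouse 75) to 0.341. No other gene changed direction among the 42 for which each alternative was tabulated. No paired analysis was possible because no mouse number is shared between groups. TPM hold no depth, so genes near 1 TPM are limited by counts that cannot be seen here.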

Other observations

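Some genes of the 85 rises lie outside the lists and were picked after their values were seen. SCNN1G and SCNN1B, subunits of the epithelial sodium channel, both rose: SCNN1G ran from 1.94 to 13.3 TPM against 0.485 to 2.16 TPM (log2 difference 1.65 ± 0.24, adjusted p = 0.00216), and SCNN1B had a log2 difference of 1.58 ± 0.28 (adjusted p = 0.00941). Both also rose with the score in the 26 tumors without enzalutamide (adjusted p = 3.46e-05 for SCNN1G and 0.0123 for SCNN1B). TFRC, the transferrin receptor for iron uptake, rose by 1.38 ± 0.27 (adjusted p = 0.0180), without a call in those tumors (adjusted p = 0.0678). MIF rose by 0.90 ± 0.15 (adjusted p = 0.00698) and CKB, the brain creatine kinase, by 1.22 ± 0.26 (adjusted p = 0.0395), also without a call there (adjusted p = 0.193 and 0.177). ME2, the mitochondrial malic enzyme, fell by 0.63 (adjusted p = 0.0316) and ASS1, which makes argininosuccinate, by 0.51 (adjusted p = 0.0148). VIM, which encodes the filament protein vimentin, had a larger but uncalled difference of -2.27 ± 0.64 (adjusted p = 0.156), with levels from 8.25 to 233 TPM against 56.2 to 1086 TPM.

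ENZR mouse 75 combined a marker-high score of 0.933 with values that differed from the other marker-high tumors in several genes. For 30 of the 85 rises it was the marker-high tumor closest to the marker-low set, beside 24 for ENZS mouse 79 and 19 for ENZS mouse 28. ENZR mouse 75 had the highest FKBP5 (112 TPM) and KLK3 (4991 TPM) of the 16 and the lowest ADM (0.0316 TPM) and EPAS1 (0.537 TPM). Its PLOD2 stood at 60.5 TPM and its LDHA at 1053 TPM.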
